A study of Mus musculus with 12 samples.

Results

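The meiotic entry and prophase genes are 32 genes of the mouse genome that act in entry into meiosis, in the structure of meiotic chromosomes and in meiotic recombination. They were taken by symbol from a table of 24470 genes, and all 32 were found and passed the filter on low counts, among 15572 genes tested. RNA-seq was performed on whole testes at E14.5, with 3 testes pooled per library and 6 libraries per genotype. Control testes were Nr2f2 f/f, and cKO testes were Wt1 CreER x Nr2f2 f/f. Both carry the floxed alleles, and the Cre acts in Wt1-positive somatic cells once tamoxifen has been given on E11.5 and again on E12.5. The labels do not say which pools came from separate litters, and p-values measure the spread between these pools.

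Germ cells of the fetal ovary enter meiosis soon after the gonad forms, whereas those of the fetal testis stop dividing and enter meiosis only after birth. Retinoic acid induces Stra8, a transcriptional activator that starts the meiotic programme together with MEIOSIN. Cohesins with meiotic subunits then hold sister chromatids along a protein axis, SPO11 cuts DNA on that axis, DMC1 pairs the broken ends with the homologous chromosome, and the synaptonemal complex closes between the homologues. Many of these genes are silent outside the germ line, and the PRC1.6 complex, which holds E2F6 and the MGA-MAX pair, keeps a set of them repressed.

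Total counts ranged from 7044531 to 59404778 per library. The targeted gene Nr2f2 was lower in cKO testes, at 75.9 ± 24.5 CPM (counts per 1000000, SD, n = 6) against 175 ± 8.87 CPM in control (log2 fold change -1.21 with a standard error of 0.16, edgeR adjusted p = 5.48e-04), and the highest cKO library (119 CPM) lay under the lowest control library (163 CPM). Xist, the RNA of the inactive X chromosome of XX cells, stood at 891 CPM in control replicate 1 and at 304, 507 and 433 CPM in cKO replicates 3, 5 and 6, while the 8 others ranged from 5.15 to 7.68 CPM. In the same 4 libraries Foxl2, a transcription factor of ovarian somatic cells, had between 14.6 and 47.2 CPM, against 0.23 to 1.3 CPM in the others, and Eif2s3y, a gene of the Y chromosome, had between 61.1 and 88.2 CPM, against 98.1 to 161 CPM. These libraries go against the label of testis in their level of Xist and Foxl2, and the genotype comparisons are given with them and in the 8 others. The Xist-low set holds 5 control and 3 cKO libraries. Replicates 5 and 6 of the cKO were the most alike pair, since 12.4% of genes differed beyond the 5% level of a chi-square test at equal depth, against 15.3% to 68.6% in the other pairs within a group, and they were counted as 2 samples, as labelled. This comparison covers counting error only and does not show whether they came from separate pools. With their counts summed as 1 sample edgeR also called 0 of the 32 (lowest adjusted p 0.135).

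**Figure D1:**
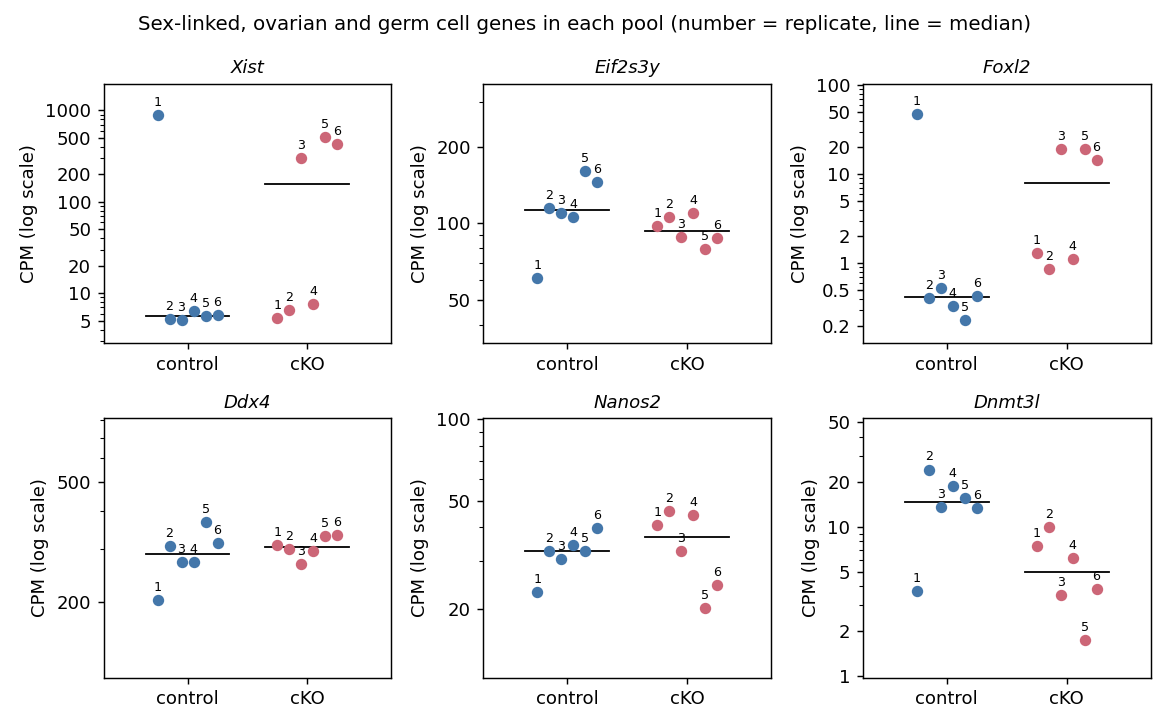
CPM on a log axis of Xist, the Y-linked gene Eif2s3y, the ovarian gene Foxl2, and the germ cell genes Ddx4, Nanos2 and Dnmt3l in each pool, where the number is the replicate and the line the group median. Control replicate 1 and cKO replicates 3, 5 and 6 stand at 304 to 891 CPM of Xist, and the other 8 libraries at 5.15 to 7.68 CPM.

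Promoter sequences were examined because the repressors named above bind short DNA motifs. RefSeq windows of 250 bases before to 50 bases after the start, on build GRCm38.p6 (mm10), were found for 25 of the 32 genes, 30 windows in all, since 5 genes have more than 1. Each window was searched on both strands for the E-box CACGTG, bound by MGA-MAX, for the E2F motif GCGGGAA, and for AGGTCA. The last is a half-site that retinoic acid receptors share with other nuclear receptors, the family of NR2F2, so a match does not name the receptor. These motifs do not overlap each other. A gene was counted where any of its windows held the motif. The E-box was present in 7 of 25 genes (28%), against 8.09% of 27025 genes, and the E2F motif in 10 of 25 (40%), against 5.29%. Sycp3, Syce2, Tex12, Hormad1, Rec114 and Stag3 held both, which is 24% of the genes against 0.611% of all. AGGTCA was present in 5 of 25 (20%), close to the 18.1% of all genes. By window, the E-box was in 8 of 30 (26.7%, against 7.15% of 32851) and the E2F motif in 11 of 30 (36.7%, against 4.60%). The windows of Stra8 and Sycp3, whose levels follow different patterns across the libraries, and of Stag3 and Tex12, which hold E-box and E2F motifs, are printed from 5′ to 3′ on the gene's strand, with motif matches on either strand in capitals. Stra8 lies at chr6:34920698-34920997 (plus strand), with AGGTCA at -194 and -38 from the start. Sycp3 lies at chr10:88459337-88459636 (plus strand), with E-boxes at -64 and -43, an E2F motif at -147 and AGGTCA at -213. Stag3 lies at chr5:138280259-138280558 (plus strand), with an E-box at -170 and an E2F motif, in reverse orientation, at -3. Tex12 lies at chr9:50561219-50561518 (minus strand), with an E-box at -93 and an E2F motif at -145.
Stra8: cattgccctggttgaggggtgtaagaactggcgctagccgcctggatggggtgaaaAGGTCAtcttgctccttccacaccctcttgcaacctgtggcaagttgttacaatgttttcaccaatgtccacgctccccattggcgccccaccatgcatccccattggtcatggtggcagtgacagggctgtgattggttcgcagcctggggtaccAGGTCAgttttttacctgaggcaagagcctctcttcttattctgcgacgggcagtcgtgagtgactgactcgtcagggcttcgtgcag
Sycp3: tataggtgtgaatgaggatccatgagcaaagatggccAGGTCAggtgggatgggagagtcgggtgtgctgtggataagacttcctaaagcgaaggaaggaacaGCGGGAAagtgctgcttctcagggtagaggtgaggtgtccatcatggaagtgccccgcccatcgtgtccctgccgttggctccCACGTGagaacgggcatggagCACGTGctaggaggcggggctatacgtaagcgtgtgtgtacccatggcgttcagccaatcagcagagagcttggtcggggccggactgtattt
Stag3: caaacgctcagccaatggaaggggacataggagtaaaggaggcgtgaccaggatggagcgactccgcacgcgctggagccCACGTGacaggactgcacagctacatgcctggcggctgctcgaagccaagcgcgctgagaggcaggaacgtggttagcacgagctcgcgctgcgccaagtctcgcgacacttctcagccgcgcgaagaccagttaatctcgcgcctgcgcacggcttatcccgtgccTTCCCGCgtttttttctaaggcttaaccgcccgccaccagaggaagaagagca
Tex12: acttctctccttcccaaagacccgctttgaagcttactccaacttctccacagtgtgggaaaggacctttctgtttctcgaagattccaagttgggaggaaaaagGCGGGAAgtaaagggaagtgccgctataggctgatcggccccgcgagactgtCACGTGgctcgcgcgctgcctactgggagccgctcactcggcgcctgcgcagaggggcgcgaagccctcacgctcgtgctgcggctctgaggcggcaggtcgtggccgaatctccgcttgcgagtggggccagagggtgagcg

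The comparison asked whether meiotic genes differ between cKO and control testes. All 32 had a log2 fold change above 0, from 0.01 for Mlh3 to 3.08 for Majin, with a median of 0.79, while the median over all genes tested was 0.003 and 50.6% were positive. The quasi-likelihood test of edgeR, with p-values adjusted by Benjamini-Hochberg over all genes, called 0 of the 32, against 3.28% of all genes called higher and 4.85% called lower. The smallest adjusted p was 0.0658, for Stag3. At an unadjusted p under 0.05, 17 of 32 were higher, against 12.1% of all genes. DESeq2 called 6 higher, Hormad2, Prdm9, Mei4, Stag3, Majin and Mcmdc2 (lowest adjusted p 0.012), against 5.28% of all genes, and limma-voom called 0 (3.42% of all genes), with 5 at an unadjusted p under 0.05 (11.7% of all genes). Without control replicate 1, edgeR called 12 of the 32 higher (Rec8, Sycp1, Syce3, Spo11, Prdm9, Meiob, Spata22, Mei1, Smc1b, Msh4, Majin and Terb1), and the share of all genes called higher went up as well, to 9.44%. It called 2 without cKO replicate 2 (Prdm9 and Majin), against 3.15% of all genes, and 1 without cKO replicate 3 (Stag3), against 2.39%. In no gene of the 32 did the 12 pools separate by genotype, against 2.39% of all genes separated with cKO higher. In bulk RNA, more cells of a type and more RNA per cell cannot be told apart.

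The difference came largely from cKO replicates 5 and 6. Both lay above all 10 other libraries in 30 of the 32 genes (all but Syce3 and Mlh3), against 10.2% of all genes, and exceeded 2 times the median of the Xist-low libraries in 27, against 3.05%. Without these libraries, a choice made after seeing the data, 20 of 32 log2 fold changes were above 0, the median was 0.10, and edgeR called 0, against 2.27% of all genes (lowest adjusted p 0.183, with 1 at an unadjusted p under 0.05). In the 8 Xist-low libraries 31 genes could be tested, 17 were above 0, and the median was 0.09. Here edgeR called Majin and Terb1 higher, against 3.68% of all genes higher and 3.39% lower. Stag3, Majin and Terb1 were higher in each of the 3 cKO libraries than in each of the 5 controls, while 13.7% of all genes showed this.

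**Figure D2:**
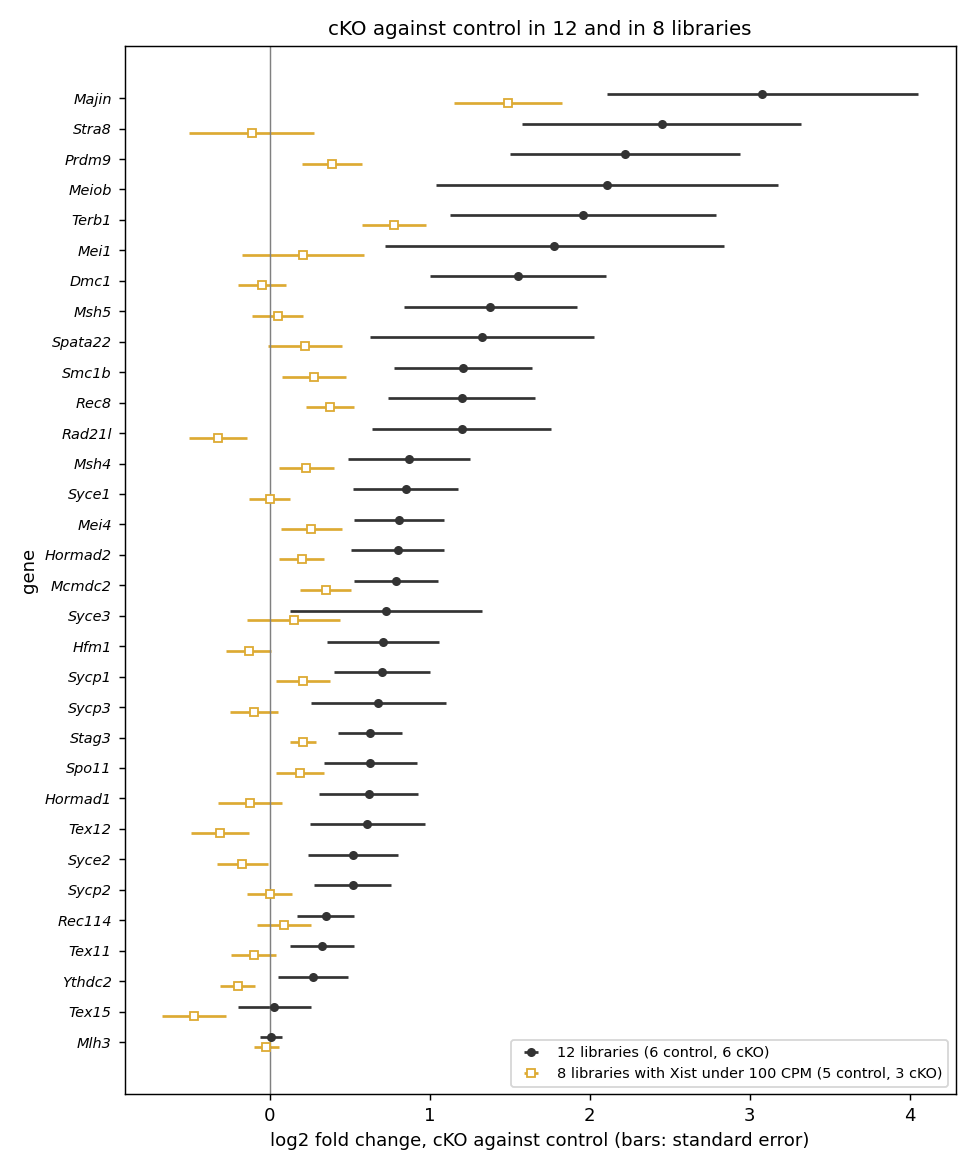
Log2 fold change of cKO against control for each of the 32 genes, with bars for the standard error, in 12 libraries (filled circles) and in the 8 with Xist under 100 CPM (open squares). The values in 12 libraries run from 0.01 to 3.08 and those in 8 libraries from -0.47 to 1.49, and Meiob was not tested in the 8.

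Control replicate 1 and cKO replicate 3 separated the genes into patterns. Both lay above all 8 Xist-low libraries in 18 of the 32 genes, against 10.4% of all genes. In 16 genes this held along with the highest levels in cKO replicates 5 and 6, against 2.07% of all genes, and Sycp3 is one of them, with Rec8, Sycp1, Spo11, Prdm9, Meiob, Spata22, Mei1, Smc1b, Rad21l, Msh4, Msh5, Majin, Terb1, Hfm1 and Ythdc2. The 14 others with their highest levels in cKO replicates 5 and 6 did not have both control replicate 1 and cKO replicate 3 above the 8, namely Stra8, Sycp2, Syce1, Syce2, Tex12, Hormad1, Hormad2, Dmc1, Mei4, Rec114, Stag3, Tex11, Tex15 and Mcmdc2. Control replicate 1 and cKO replicate 3 exceeded 2 times the median of the 8 in 9 genes, against 1.61% of all genes. Of the 6 genes with both E-box and E2F motifs, Sycp3 followed the first pattern and the other 5 the second. Genes with 1 of these motifs, namely Prdm9, Spata22, Smc1b and Msh5 (E2F motif) and Sycp1 (E-box), followed the first. A link between motif and pattern was not tested. No test was made between the patterns, since the order of the libraries defines them.

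**Figure D3:**
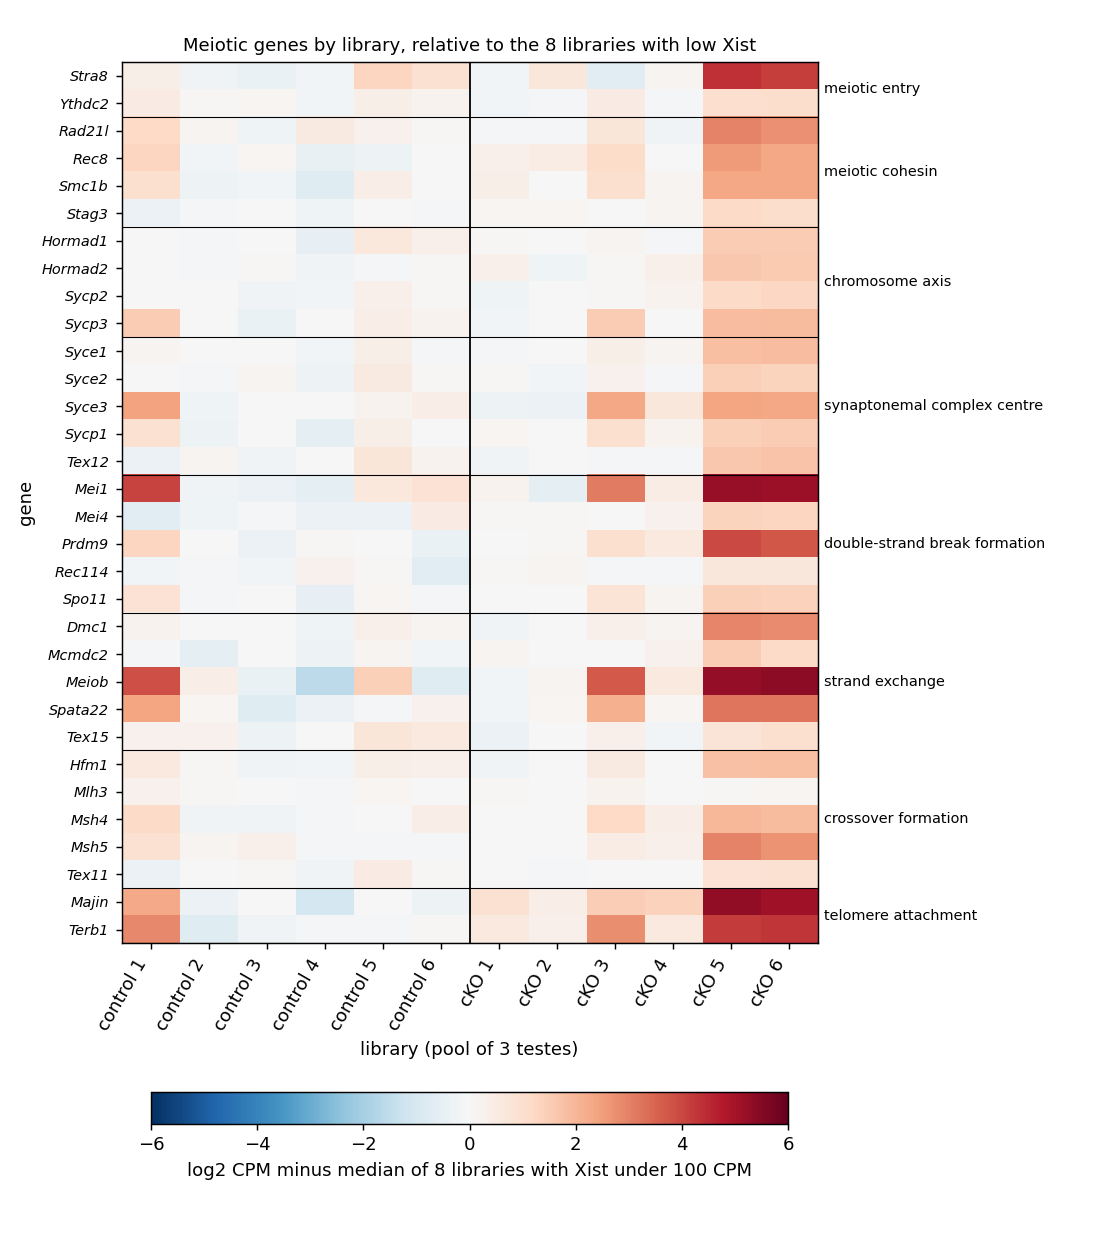
Log2 CPM of each of the 32 genes minus its median over the 8 Xist-low libraries, in 12 libraries and grouped by role, with red above and blue below. Replicates 5 and 6 of the cKO are red in nearly every row, and control replicate 1 and cKO replicate 3 are red in a subset that includes Sycp3, Meiob and Mei1 and leaves out Stra8.

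Of the genes of meiotic entry, Stra8 (Entrez Gene 20899, mm10 chromosome 6, positions 34920960 to 34939342) had 5.28, 3.50, 3.12, 3.67, 10.2 and 7.95 CPM in control replicates 1 to 6, and 3.72, 6.54, 2.58, 4.56, 87.7 and 73.6 CPM in cKO replicates 1 to 6. Only cKO replicates 5 and 6 stood apart, at 21.2 and 17.8 times the median of the Xist-low libraries, while cKO replicate 3, with high Xist, was the lowest of the 12. Stra8's log2 fold change came to 2.45 with a standard error of 0.87 (edgeR adjusted p = 0.0997), and it was -0.11 (standard error 0.39, adjusted p = 0.863) in the 8 libraries. Ythdc2, an RNA helicase that germ cells need to leave the mitotic programme, had 41.1, 30.2, 30.8, 25.9, 36.8 and 32.8 CPM in control replicates 1 to 6, and 26.1, 27.3, 40.3, 27.5, 57.5 and 60.7 CPM in cKO replicates 1 to 6, with log2 fold changes of 0.27 (edgeR adjusted p = 0.448) in 12 libraries and -0.20 (adjusted p = 0.226) in the 8. Ythdc2 thus varied over a narrower range than Stra8.

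**Figure D4:**
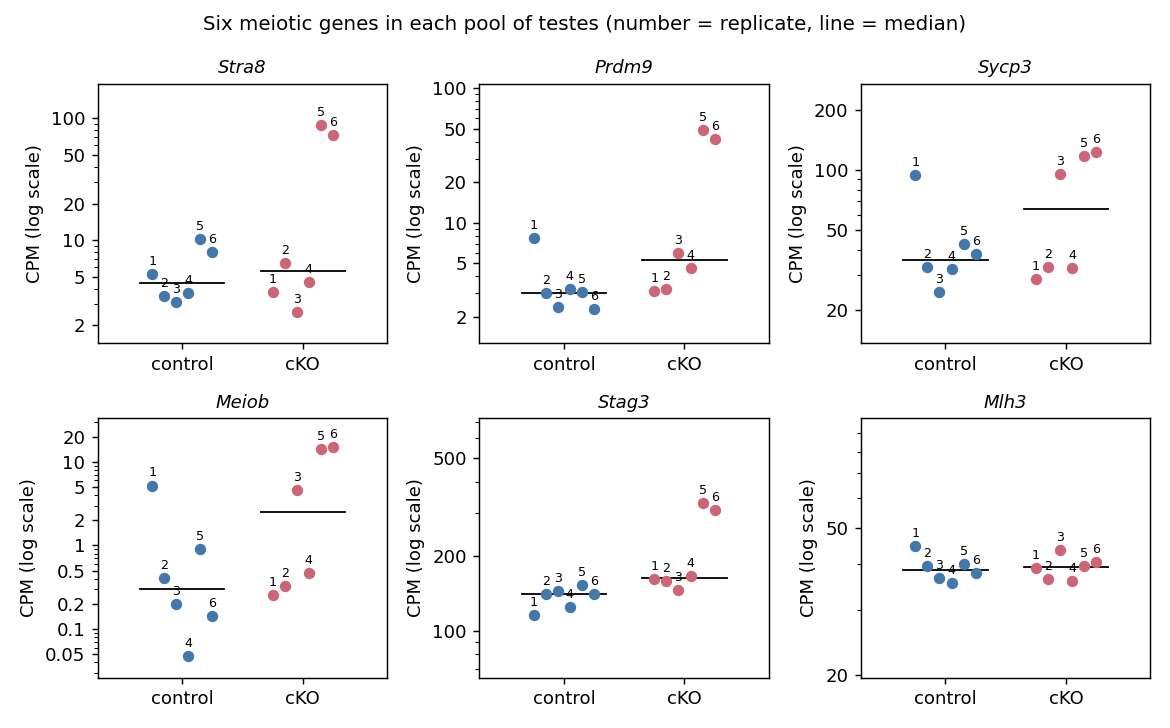
CPM on a log axis of Stra8, Prdm9, Sycp3, Meiob, Stag3 and Mlh3 in each pool, where the number is the replicate and the line the group median. Stra8 and Stag3 are high in cKO replicates 5 and 6 alone (73.6 and 87.7 CPM for Stra8), Sycp3 and Meiob also in control replicate 1 and cKO replicate 3, and Mlh3 stays between 35.5 and 44.7 CPM in all 12.

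The cohesin subunits particular to meiosis replace mitotic subunits along the chromosome axis. Stag3 (chromosome 5 from 138280509 to 138312393), which all meiotic cohesin complexes contain, had 116, 141, 145, 125, 153 and 141 CPM in control replicates 1 to 6, and 161, 159, 146, 166, 328 and 307 CPM in cKO replicates 1 to 6. Control replicate 1 was its lowest library, and cKO replicate 3 lay among the controls. The log2 fold change was 0.63 (standard error 0.20, edgeR adjusted p = 0.0658) in 12 libraries and 0.21 (standard error 0.08, adjusted p = 0.117) in the 8. Smc1b, the meiotic partner of SMC3, had 450 and 461 CPM in cKO replicates 5 and 6, 178 in control replicate 1 and 177 in cKO replicate 3, and 55.3 to 121 CPM in the other libraries. Rec8, the kleisin that is protected at centromeres, followed the same order, with 68.9 and 59.6 CPM, 28.8 and 25 CPM, and 8.66 to 15.9 CPM. Rad21l, the other meiotic kleisin, had 32.2 and 27.2 CPM in cKO replicates 5 and 6 and at most 9.28 CPM elsewhere. Its log2 fold change went from 1.20 in 12 libraries to -0.32 in the 8, and neither passed the edgeR test (adjusted p = 0.202 and 0.267). Stag3 thus differed from the other 3 cohesin genes in control replicate 1, at 0.781 times the Xist-low median, against 1.97 to 2.44 times.

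Among axis genes, Sycp3 (Entrez Gene 20962, chromosome 10 from 88459587 to 88473236), a coiled-coil protein of the axial element, had 94.5, 32.9, 24.7, 32, 42.8 and 38.0 CPM in control replicates 1 to 6, and 28.7, 32.9, 95.3, 32.4, 118 and 123 CPM in cKO replicates 1 to 6. The 4 libraries with high Xist were its 4 highest, and the genotypes overlapped. For Sycp3 the log2 fold change came to 0.68 (standard error 0.42, adjusted p = 0.324 by edgeR) in 12 libraries, and to -0.10 (standard error 0.15, adjusted p = 0.662) in the 8 libraries. Sycp2, its partner in the axial element, had 66.1, 66.9, 57.7, 60.7, 83.8 and 71.4 CPM in control replicates 1 to 6, and 55.8, 68.8, 70.9, 77.9, 149 and 163 CPM in cKO replicates 1 to 6. In Sycp2, unlike Sycp3, control replicate 1 lay among the Xist-low libraries. Hormad1 and Hormad2, which mark unsynapsed axes, were like Sycp2. Hormad1 had 122 and 123 CPM in cKO replicates 5 and 6 against 30.3 to 66.3 CPM elsewhere, and Hormad2 had 21.7 and 21.4 against 6.02 to 8.81 CPM. Sycp3 was thus the 1 axis gene of the 4 with control replicate 1 and cKO replicate 3 above the Xist-low range, at 2.90 and 2.92 times its median. Per kilobase of exon (GENCODE M21), the Xist-low median level of Sycp3 was 25.8 CPM, close to Hormad1 (24.5) and above Sycp2 (11.4) and Hormad2 (2.61).

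The centre of the synaptonemal complex is built from the transverse filament SYCP1 and from central element proteins. Sycp1 had 137, 57.9, 71.1, 49.2, 93.4 and 70.1 CPM in control replicates 1 to 6, and 77.4, 73.2, 142, 84.2, 196 and 206 CPM in cKO replicates 1 to 6, so the 4 libraries with high Xist were the highest. Across 12 libraries the log2 fold change of Sycp1 came to 0.70 with a standard error of 0.30 (edgeR adjusted p = 0.168), and 0.21 (adjusted p = 0.423) in the 8. The central element genes Syce1, Syce2 and Tex12 had their highest levels in cKO replicates 5 and 6, at 2.49 to 3.62 times the Xist-low median, and 0.781 to 1.29 times in control replicate 1 and cKO replicate 3. Syce3, also of the central element, went another way, with 4.84, 4.51, 4.75 and 4.60 CPM in control replicate 1 and cKO replicates 3, 5 and 6, and 0.661 to 1.39 CPM in the rest. In Syce3 these 4 libraries were nearly alike, at 5.30 to 5.69 times the median, and its lowest library held 8 counts.

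For genes of double-strand break formation, Prdm9, the histone methyltransferase that places the breaks, had 7.71, 3.01, 2.39, 3.25, 3.06 and 2.31 CPM in control replicates 1 to 6, and 3.10, 3.24, 6, 4.62, 49.1 and 42.1 CPM in cKO replicates 1 to 6. Its log2 fold change was 2.22 (standard error 0.72, edgeR adjusted p = 0.0727, DESeq2 adjusted p = 0.0246), and 0.39 (adjusted p = 0.188) in the 8 libraries. Mei1, needed for break formation, had 22.3, 20.7, 9.85 and 5.17 CPM in cKO replicates 5 and 6, control replicate 1 and cKO replicate 3, and at most 1.01 CPM elsewhere. Prdm9 had the highest mean of these genes only through cKO replicates 5 and 6, as its Xist-low median level per kilobase of exon was 0.716 CPM against 1.46 CPM for Spo11. Spo11, the enzyme that cuts the DNA, lay above the Xist-low range of 4 to 6.49 CPM in the same 4 libraries, to 10.3 to 15.5 CPM. Mei4 and Rec114, which form a complex that activates SPO11, were high in cKO replicates 5 and 6 alone, at 2.53 and 2.51 times the Xist-low median for Mei4 and 1.62 times in cKO replicate 5 for Rec114. Mei4 had its lowest level in control replicate 1 (1.98 CPM).

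In the strand exchange group, Dmc1, the meiotic recombinase, had 56.5 and 52.4 CPM in cKO replicates 5 and 6 and 6.17 to 9.26 CPM in all 10 others. Meiob and Spata22 encode a complex that binds single-stranded DNA, and the 4 libraries with high Xist were the highest in both. The level of Meiob was 5.22 CPM in control replicate 1, 4.62 in cKO replicate 3, 14.1 and 15.1 in cKO replicates 5 and 6, and at most 0.918 elsewhere, with 1 count in its lowest library. Spata22 had 12.7, 10.9, 22.7 and 22.5 CPM in these libraries and 1.41 to 2.89 CPM in the rest. Mcmdc2, needed for homology search, had 15.7 and 12.1 CPM in cKO replicates 5 and 6 against 3.62 to 6.61 CPM. Tex15, which also acts in transposon silencing in fetal male germ cells, had 268, 263, 178, 229, 369 and 337 CPM in control replicates 1 to 6, and 175, 216, 272, 201, 383 and 432 CPM in cKO replicates 1 to 6, with log2 fold changes of 0.03 (adjusted p = 0.949 by edgeR) in 12 libraries and -0.47 (adjusted p = 0.156) in the 8. The level in cKO replicates 5 and 6 was thus 1.72 to 1.94 times the Xist-low median for Tex15 and 48.4 to 51.7 times for Meiob, which had the largest ratio of the 32.

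The crossover genes ranged from 1.06 times the Xist-low median (Mlh3) to 8.03 times (Msh5) in cKO replicates 5 and 6. Msh4 and Msh5 encode a clamp that stabilises recombination intermediates. Msh5 had 25.1 and 21 CPM in cKO replicates 5 and 6 and 2.89 to 5.87 CPM elsewhere, and Msh4 had 15.2 and 14.3 CPM, 8.44 in control replicate 1, 8.61 in cKO replicate 3 and 3.22 to 4.95 CPM in the rest. Hfm1, a helicase of crossover formation, had 99.9 and 103 CPM against 24.9 to 44 CPM. Tex11, an X-linked crossover gene, had 33, 40.5, 43.2, 35.5, 58.5 and 43.4 CPM in control replicates 1 to 6, and 42.2, 39.3, 41.9, 41.4, 76.1 and 78.8 CPM in cKO replicates 1 to 6, with control replicate 1 the lowest. Mlh3, a mismatch repair endonuclease that somatic cells also express, had 35.5 to 44.7 CPM in all 12 libraries, and its log2 fold change was 0.01 with a standard error of 0.07 (edgeR adjusted p = 0.975), and -0.02 in the 8 libraries (adjusted p = 0.863). In the 12 libraries Mlh3 had the value closest to 0 of the 32.

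Majin and Terb1 anchor meiotic telomeres to the nuclear envelope, and they were the genes called higher in the 8 libraries. Majin (chromosome 19 from 6184410 to 6224219) had 2.14, 0.285, 0.377, 0.141, 0.383 and 0.289 CPM in control replicates 1 to 6, and 0.794, 0.529, 1.21, 1.1, 18 and 15.1 CPM in cKO replicates 1 to 6. Among Xist-low libraries, the 3 cKO pools were above the 5 controls, at low levels with as few as 2 counts. Its log2 fold change was 3.08 (standard error 0.97, edgeR adjusted p = 0.0662) in 12 libraries and 1.49 (standard error 0.34, adjusted p = 0.0246) in the 8. Terb1 had 11.6, 0.895, 1.28, 1.41, 1.45 and 1.59 CPM in control replicates 1 to 6, and 2.35, 1.92, 10.8, 2.28, 29.2 and 31.2 CPM in cKO replicates 1 to 6. Its log2 fold change was 1.96 (standard error 0.83, edgeR adjusted p = 0.158) in 12 libraries and 0.78 (standard error 0.20, adjusted p = 0.0411) in the 8. Without control replicate 1 the value was 3.30 for Terb1 (edgeR adjusted p = 0.0148) and 4.26 for Majin (adjusted p = 0.0201). In the same 8 libraries Foxl2 was higher in cKO as well (log2 fold change 1.45, edgeR adjusted p = 0.00958), at 0.859 to 1.30 CPM against 0.23 to 0.528 CPM, and its part in the result was not tested.

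**Figure D5:**
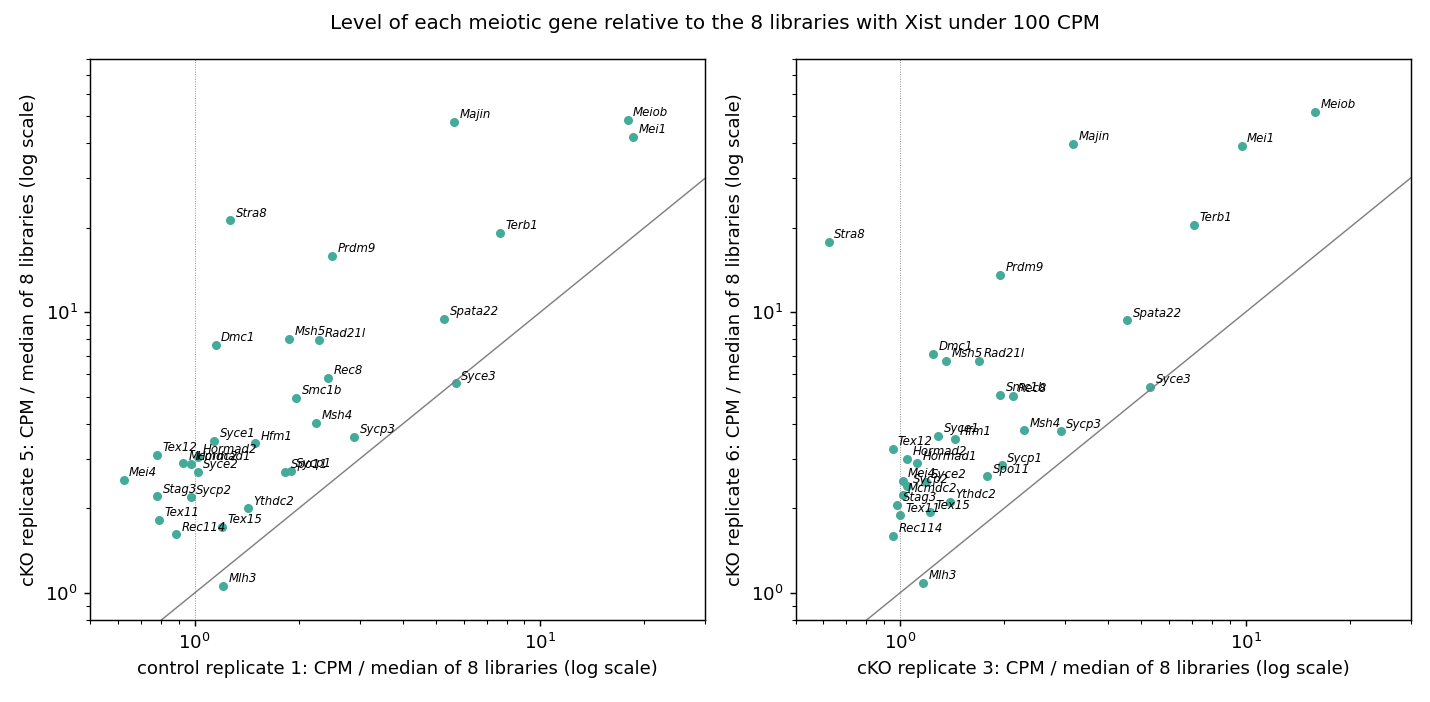
Level of each of the 32 genes relative to its median over the 8 Xist-low libraries, on log axes, with control replicate 1 against cKO replicate 5 (left) and cKO replicate 3 against cKO replicate 6 (right). The grey diagonal marks equal ratios. Stra8 lies near 1 or below on the horizontal axis (1.27 and 0.624) and at 21.2 and 17.8 on the vertical axis, whereas Mei1 and Meiob are high on both.

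Other genes were set beside these patterns. Of 22 other meiotic genes tested, 2 were called higher by edgeR and 0 lower, with a median log2 fold change of 0.60. In the 8 Xist-low libraries the median was 0.06 and Meioc alone was called. Meioc, a partner of YTHDC2, had 128 and 135 CPM in cKO replicates 5 and 6 and 5.65 to 15.6 CPM elsewhere (log2 fold change 2.62, edgeR adjusted p = 0.0488, and 0.54 with adjusted p = 0.0463 in the 8), and Terb2, which binds TERB1, had at most 3.7 CPM outside cKO replicates 5 and 6, and 14.7 CPM in cKO replicate 6 (log2 fold change 1.93, edgeR adjusted p = 0.0371, and 0.64 with adjusted p = 0.0847 in the 8). The median log2 fold change of cohesin and repair genes that dividing cells share was 0.01 (-0.07 in the 8), and Rad50, a subunit of the complex that processes DNA breaks, was called higher (0.30, edgeR adjusted p = 0.00997) but not in the 8 libraries (0.25, adjusted p = 0.0756). The summed level of 18 germ cell genes was 2060 CPM in control replicate 1 and 2570, 2740 and 2810 CPM in cKO replicates 3, 5 and 6, within or under the 2380 to 3000 CPM of the Xist-low libraries, and 1 of the 18, Tex19.1, was called higher in 12 libraries (adjusted p = 0.0172 by edgeR) and in the 8 (0.0113). Per 100 CPM of Ddx4, an RNA helicase of germ cells, Sycp3 had 46.5, 35.5, 35.5 and 36.8 CPM in control replicate 1 and cKO replicates 3, 5 and 6, and 9.07 to 12.1 CPM in the rest. Per 100 CPM of Ddx4, Stra8 had 26.5 and 22 CPM in cKO replicates 5 and 6 and 0.963 to 2.77 CPM in the others. The pattern of both genes was thus also present relative to Ddx4. Ddx4 itself was lowest in control replicate 1, at 203 CPM against 268 to 368 CPM in the other libraries. Of the 18 germ cell genes, 2 had their highest levels in cKO replicates 5 and 6, against 10.2% of all genes. These were Dazl (928 and 889 CPM) and Rbm46 (37.5 and 40.6 CPM).

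Of 9 genes of fetal male germ cells, 1 was lower and 0 higher, with a median log2 fold change of -0.45. In the 8 Xist-low libraries the median was -0.31, with Nanos2, a repressor of meiosis in male germ cells, called higher (0.37, edgeR adjusted p = 0.032) and Dnmt3l (-1.16, adjusted p = 0.011) and Morc1 (-0.65, adjusted p = 0.0492) lower. Dnmt3l, a cofactor of DNA methylation in male germ cells, was lower in cKO testes (log2 fold change -1.43, edgeR adjusted p = 0.0412), with 3.73 CPM in control replicate 1, 13.4 to 24.2 CPM in the other controls, and 1.76 to 10 CPM in cKO pools. The summed level of these 9 genes was 150, 145, 103 and 132 CPM in control replicate 1 and cKO replicates 3, 5 and 6, against 179 to 276 CPM in the Xist-low libraries. Among retinoic acid genes Stra6, a receptor for retinol uptake, was lower in cKO testes (log2 fold change -0.60, edgeR adjusted p = 0.00317, and -0.55 with adjusted p = 0.0364 in the 8). For Cyp26b1, the enzyme that breaks down retinoic acid in the fetal testis, the difference was -0.04 on the log2 scale (edgeR adjusted p = 0.939) and 0.26 (adjusted p = 0.535) in the 8, with 103 and 109 CPM in cKO replicates 5 and 6, 72.5 CPM in control replicate 5 and 156 to 238 CPM in the rest. None of 11 PRC1.6 genes was called in either direction by edgeR, in 12 libraries (median 0.05) or in the 8 (median -0.01), and their summed level in cKO replicates 5 and 6 was 1220 and 1200 CPM, within the 1040 to 1230 CPM of the Xist-low libraries. Single members differed in direction there, since E2f6 had its lowest levels in these libraries (66.6 and 73.4 CPM) and L3mbtl2 (65.7 and 58.1 CPM) and Tfdp1 (161 and 157 CPM) their highest. Of 10 ovarian somatic genes, Wnt4 was called lower (log2 fold change -0.77, edgeR adjusted p = 0.0249) and 0 were called higher. In the 8 libraries Wnt4 was again lower (-0.84, adjusted p = 0.00686), and Foxl2, Fst (0.62, adjusted p = 0.0216) and Bmp2 (0.67, adjusted p = 0.0379) were higher. The summed level of the 10 was 433, 227, 297 and 277 CPM in control replicate 1 and cKO replicates 3, 5 and 6, against 127 to 160 CPM in the Xist-low libraries, and none of its 10 genes was at 0. Of 10 Sertoli cell genes edgeR called 0 in 12 and 0 in 8 libraries, and their summed level in these 4 libraries was 1050, 1040, 877 and 813 CPM against 910 to 1380 CPM. With the level of Xist as a covariate in the edgeR fit, the median log2 fold change of the 32 genes was 0.38 in place of 0.79, that of Stra8 0.83 and that of Sycp3 0.05. With the mean level of the germ cell genes as a covariate the median was 0.80. The part of ovarian cells in these levels was not tested.

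As a description over 12 libraries, which differ in group and in depth, 15 genes had a higher Pearson r of log2 CPM with Sycp3 than with Stra8. For 16 the reverse held, counting Stra8 and Sycp3 each with itself, while Prdm9 had 0.86 with both. Msh5 and Hfm1 had the higher r with Stra8, although the order of the libraries put them in the pattern of Sycp3. Some values did not hold by rank or in the 8 Xist-low libraries. With Stra8, Msh5 had an r of 0.87, a Spearman rank correlation of 0.08 and an r of -0.63 in the 8. These values were 0.89, 0.27 and -0.23 for Hormad2, whereas Sycp2 had 0.95, 0.71 and 0.77. Outside the 32 genes and among 14230 candidates, the genes most like Stra8 were Eaf2 (r = 0.972), Pde3b (0.970), Alms1 (0.969), Abhd18 (0.969) and Gm960 (0.967). Those most like Sycp3 were Fndc1 (0.974), D630039A03Rik (0.972), Trim66 (0.967), Dock2 (0.965) and Taf7l (0.965). In the 8 Xist-low libraries r was lower, at 0.62 to 0.93 for the genes like Stra8 (0.93 for Abhd18) and 0.27 to 0.64 for those like Sycp3.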

How the data were processed

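The authors trimmed reads with Trim Galore 0.6.7, aligned them to mm10 with STAR 2.5 and counted read pairs by strand with featureCounts of Subread 1.5.0-p1, per the methods and labels. The deposited values are raw counts per gene, not normalized, for 24470 genes, of which 2 symbols occur on more than 1 line. No column was without a sample (0). The main test was that of edgeR 4.0.16 in R 4.3.3, with TMM scaling, filterByExpr (minimum count 10, minimum total 15), glmQLFit and glmQLFTest, Benjamini-Hochberg adjustment over all 15572 genes and a threshold of 0.05. DESeq2 1.42.0 and limma 3.58.1 (voom) were alternatives. DESeq2 was first run with its independent filter set at 0.05. It was set back to its default, which the written plan named, after the number of genes it called had been compared with the number stated for the study, and both are given in the closing section. CPM used library sizes scaled by TMM, and log2 values a prior count of 2. Exon lengths came from GENCODE M21 and promoter windows from RefSeq, which had none for Mcmdc2, Ythdc2, Spo11, Majin, Meiob, Tex11 and Tex15 in the table used here. On the same strand, Spata22 shares 1025 exon bases with Gm49340, which is not a row of the counts.

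The 32 genes and the gene lists were chosen with earlier results of these data known. All 32 genes are accounted for. Values per library are given for genes called by edgeR, Stra8, Sycp3 and the gene of each role with the highest mean CPM over 12 libraries, and ranges for the others. Outside the 32, the genes named are the 5 most like Stra8 and the 5 most like Sycp3 by Pearson r (mean of at least 1 CPM) and examples from each list. The list genes Gm4969, Ankrd31 and Rnf212 were not analysed here. Part of the results of the gene lists is not reported here. Scripts were tested on simulated data. Alternatives were other scaling, filters and tools, a replicate block, Xist or germ cell genes as covariates, the 8 libraries with Xist under 100 CPM, leaving out each library, and, chosen after seeing the data, leaving out or summing cKO replicates 5 and 6.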

Additional observations from a re-analysis of the deposited data

Results flagged for a closer look

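In each gene, the highest or lowest library of a group was compared with its neighbour, relative to the range of its group of 6. Of 64 groups tested (32 genes in 2 genotypes), 12 had a library that stood apart. The limit used flags about 1 in 20 groups by chance if values are normal and groups independent. These were CPM without a log scale, of genes that vary together, so the 12 cannot be set against that rate. In all 12 groups the library that stood apart was control replicate 1, on the high side, the control library with high Xist. Its levels were 28.8 CPM for Rec8, 94.5 for Sycp3, 4.84 for Syce3, 10.5 for Spo11, 7.71 for Prdm9, 5.22 for Meiob, 12.7 for Spata22, 9.85 for Mei1, 8.44 for Msh4, 5.87 for Msh5, 2.14 for Majin and 11.6 for Terb1. The cKO group, in which 3 libraries had high Xist, had 0 such cases, which says nothing of its spread, since cKO replicates 5 and 6 were close together at the top in most genes and this comparison with the nearest library cannot mark either of them.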

How the results depend on the processing

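The number of the 32 genes called higher (0 with edgeR) was 6 with DESeq2 at its defaults (1919 genes called in all) and also 6 with its filter set at 0.05 (1905), 1 with Xist as a covariate (Terb1, against 3.67% of all genes called higher), 12 with germ cell genes as a covariate (against 8.94%, up from 3.28%) and 2 in the 8 Xist-low libraries (under 100 CPM). Leaving out each library gave 0 to 12, with 12 without control replicate 1 (against 9.44% of all genes), 2 without cKO replicate 2 (Prdm9 and Majin) and 1 without cKO replicate 3 (Stag3). No setting called any of the 32 lower. Their median log2 fold change (0.79) was 0.38 with Xist as a covariate, 0.09 in the 8 libraries, 0.10 without cKO replicates 5 and 6, and 0.54 to 0.91 in the other settings. With the replicate block 0 of the 32 were called (lowest adjusted p 0.0624), and the numbers do not pair the pools, since correlations of same-numbered deviations were -0.33, 0.21, -0.25, 0.24, 0.02 and 0.01. The log2 fold change of Tex15 (0.03) was -0.02 with limma-voom, -0.01 with the replicate block, -0.21 with Xist as a covariate and -0.08 with cKO replicates 5 and 6 summed, and leaving out each library gave -0.14 to 0.14 for Tex15 and -0.03 to 0.05 for Mlh3. With Xist as a covariate it was -0.02 for Ythdc2 and -0.05 for Mlh3. In the 8 libraries it was negative for Stra8 (-0.11), Sycp2 (-0.0034), Sycp3 (-0.10), Syce1 (-0.004), Syce2 (-0.17), Tex12 (-0.31), Hormad1 (-0.12), Dmc1 (-0.05), Rad21l (-0.32), Tex11 (-0.10), Tex15 (-0.47), Hfm1 (-0.13), Ythdc2 (-0.20) and Mlh3 (-0.02). Without cKO replicates 5 and 6 it was negative for Stra8 (-0.34), Syce2 (-0.07), Tex12 (-0.22), Hormad1 (-0.05), Mei1 (-0.37), Rad21l (-0.28), Msh5 (-0.05), Tex11 (-0.03), Tex15 (-0.34), Hfm1 (-0.07), Ythdc2 (-0.12) and Mlh3 (-0.0073). The cause of these changes was not tested. Over all genes, 733 to 3106 were called across settings, against 1266. The filter at 1 CPM left 29 of the 32 genes to test. Depth limits Syce3, Meiob, Mei1 and Majin, which had under 10 counts in at least 1 library.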
